A study of Mus musculus with 6 samples.

Results

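The genes described here encode the respiratory chain of the inner mitochondrial membrane. They were chosen by symbol from the authors' count table of sorted mouse retinal microglia: the nuclear subunits of complex I (Ndufa, Ndufb, Ndufc, Ndufs and Ndufv genes), complex II (Sdha to Sdhd), complex III (Uqcr genes) and complex IV (Cox4 to Cox8 genes), with the protein genes of mitochondrial DNA. The rule found 83 genes of 21851, of which 70 were nuclear and 13 mitochondrial. The nuclear genes comprised 37 of complex I, 4 of complex II, 8 of complex III and 21 of complex IV. The 21 include Cox5b-ps, a pseudogene by its symbol, which was not tested. Ndufa4 and Ndufa4l2 were placed with complex IV, where the Ndufa4 protein is now assigned. The mitochondrial genes comprised 7 of complex I, 1 of complex III, 3 of complex IV and 2 of complex V, the ATP synthase.

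Complex I passes electrons from NADH, and complex II from succinate, to ubiquinone. Complex III carries them on to cytochrome c and complex IV to oxygen, and complexes I, III and IV pump the protons that drive ATP synthase. Each of these complexes except complex II is built from nuclear and mitochondrial products, so their assembly needs both genomes. Within complex I, the core subunits carry the catalytic centres and are conserved from bacteria, whereas the accessory subunits surround them. Microglia, the resident macrophages of the retina, use both oxidative phosphorylation and glycolysis, and CD36 is a scavenger receptor that takes up fatty acids and oxidised lipoproteins.

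The study compared 3 libraries of CD36 CKO retinae, a conditional knockout, with 3 of CD36 flox retinae, which the series text also calls wild type. All 6 were Smart-seq2-type libraries, a full-length cDNA method for small samples, from cells sorted as CD45-positive with intermediate CD11b. The protocol describes sodium iodate (NaIO3), an agent toxic to the retinal pigment epithelium, given intravenously at 20 mg/kg, with PBS controls and collection on day 7. Which libraries received it is not in the labels used here. The labels give no Cre driver, age, sex or strain. The description codes of CKO 2 and CKO 3, and of flox 2 and flox 3, are the same but for OD or OS. Both libraries of a pair may therefore come from 1 mouse, and p-values would then be too small.

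Totals ranged from 13462683 to 20018910 counts in CKO libraries and from 14936446 to 19682735 in flox libraries. Where a gene has 0 counts, 3 counts remain possible, which is 0.150 to 0.223 CPM over the 6 libraries (CPM are counts put on 1 library size), from counting error alone. Gene levels are CPM scaled by the trimmed mean of M-values (TMM). Cd36, on the same scale, had 122, 65.2 and 28.5 CPM in CKO 1, 2 and 3, against 90.5, 193 and 144 CPM in flox 1, 2 and 3, so that the library labelled CKO 1 lay above flox 1. Of 16 microglia markers 15 were counted, summing to 18848 to 28919 CPM in CKO and 19426 to 25256 CPM in flox. Of the 15, 9 had a higher fitted level in CKO (median log2 fold change 0.11) and 6 a lower one. Cx3cr1, a chemokine receptor gene, was the only 1 with all CKO libraries below all flox libraries. It had 130, 188 and 111 CPM in CKO 1, 2 and 3, against 221, 476 and 323 CPM in flox 1, 2 and 3 (unadjusted p 0.00392, adjusted p 0.9996, edgeR with Benjamini-Hochberg). The 11 monocyte markers summed to 754, 850 and 943 CPM in CKO 1, 2 and 3 and to 747, 827 and 676 CPM in flox 1, 2 and 3; 8 were higher in CKO (median log2 fold change 0.87), 3 with all CKO libraries above all flox libraries. The 16 rod photoreceptor markers summed to 27662, 11113 and 10980 CPM in CKO 1, 2 and 3, against 11002, 15474 and 24127 CPM in flox 1, 2 and 3. The 12 markers of Müller glia and astrocytes summed to 13995, 41638 and 31440 CPM against 17244, 14929 and 12678 CPM. Most of each of these sums was Apoe, with 12603, 40135 and 28306 CPM in CKO and 15498, 13323 and 11743 CPM in flox. All 12 had a higher fitted level in CKO (median log2 fold change 0.59). The 4 Y-linked genes summed to 0.438, 0.649 and 0.751 CPM in CKO 1, 2 and 3 and to 146, 10.4 and 29.5 CPM in flox 1, 2 and 3, so that genotype and sex cannot be told apart here. Haemoglobin transcripts exceeded 100 CPM in CKO 1, flox 2 and flox 3 (1862 to 4368 CPM) and stayed at or below 0.356 CPM in CKO 2, CKO 3 and flox 1. Comparisons are also given within these sets, which were made from the data and not from a label. They also follow the description codes, since CKO 2 and CKO 3 are both negative and flox 2 and flox 3 both positive. Within the positive set 1 of the 15 microglia markers was higher in CKO, and within the negative set 14 were. In such bulk samples, fewer cells of a type and less RNA per cell cannot be told apart.

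No respiratory chain gene passed the test between CKO and flox. Of the 83 genes, 78 had enough counts to be tested (65 nuclear, 13 mitochondrial), and each had an adjusted p of 0.9996 (edgeR, quasi-likelihood, Benjamini-Hochberg). Among all 13477 genes tested, 0 passed (0%). At an unadjusted p under 0.05, 4 nuclear members and 1 mitochondrial member stood out, all higher in CKO, where 379 of all genes (2.81%) did and 195 (1.45%) were higher in CKO. The DESeq2 test called 0 members and 23 genes among all (0.151% of those tested).

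Although no gene passed, the nuclear members leaned one way. Of the 65 tested, 56 had a higher fitted level in CKO, with a median log2 fold change of 0.20 and values of up to 1.37; among all genes tested, 50.6% had a higher fitted level and the median was 0.00. With library totals in place of TMM scaling the median of all genes was -0.12. Of the 65 nuclear members 42 were then higher, against 33.9% of all genes. Their summed level was 17200, 15426 and 18107 CPM in CKO 1, 2 and 3, against 14948, 13791 and 15744 CPM in flox 1, 2 and 3, and CKO 2 lay below flox 3. The means were 16911 ± 1364 CPM in CKO and 14828 ± 982 CPM in flox (SD, n = 3 each). For 13 of the 65 (20.0%) all CKO libraries lay above all flox libraries, where 3.9% of all genes did so, and for 0 did all CKO libraries lie below, against 4.1% of all genes. Within the haemoglobin-positive libraries 60 of the 65 were higher in CKO (median log2 ratio 0.24), and within the negative ones 50 (0.16). The members share 6 libraries and are not replicates of the genotype.

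**Figure D1:**
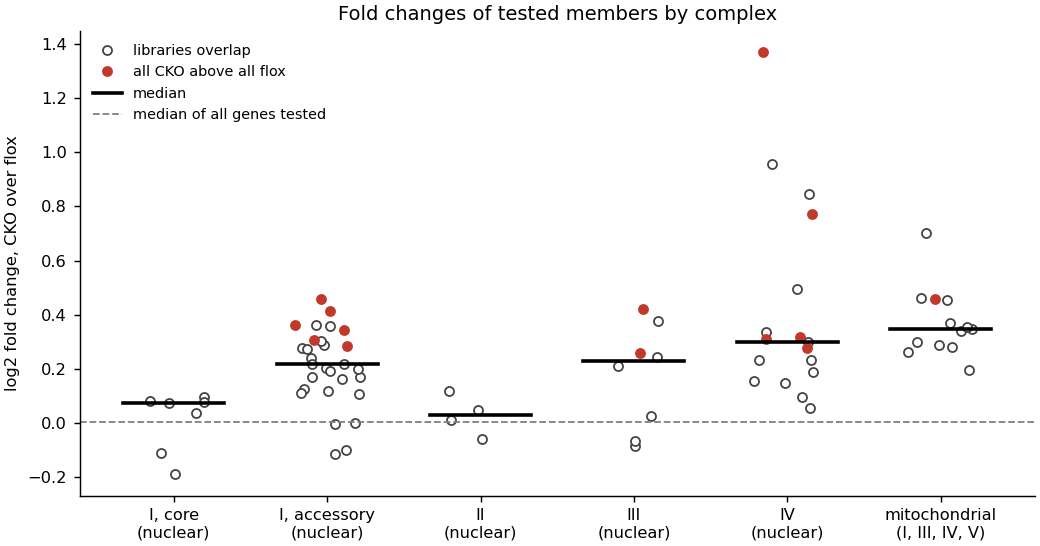
Log2 fold change (CKO over flox, y axis) of each tested member by complex, with the median of each group as a bar and that of all genes tested as a dashed line. The 7 core subunits of complex I lie at or below 0.10, and each of the 13 mitochondrial genes lies above 0.

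Library by library, the lean came from both ends. The highest of the 6 levels was in CKO 3 for 31 of the 65 nuclear members, in CKO 1 for 26 and in CKO 2 for 5, and in flox 3 for 2 and in flox 2 for 1. The lowest level was in flox 2 for 39 members. CKO 3 held the lowest level of another 10, so the library with most of the highest levels also had some of the lowest. The same counts were not made over all genes, so they do not set the members apart from other genes.

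In complex I the accessory and core subunits are given apart, and the difference between them was not tested. Of 29 accessory subunits tested, 25 were higher in CKO, with a median log2 fold change of 0.22, and all CKO libraries lay above all flox libraries for 6, namely Ndufa3, Ndufa1, Ndufb4, Ndufa7, Ndufv3 and Ndufa13. Of the 7 nuclear core subunits 5 were higher in CKO, with a median of 0.07, and for 0 of them did the groups separate. With library totals 22 of the 29 accessory and 0 of the 7 core subunits were higher, against 33.9% of all genes tested. Summed accessory levels were 6257, 5598 and 6867 CPM in CKO 1, 2 and 3, against 5497, 4881 and 5810 CPM in flox 1, 2 and 3. Core levels summed to 1459, 1124 and 1068 CPM in CKO 1, 2 and 3, against 1099, 1202 and 1316 CPM in flox 1, 2 and 3. The core sum per accessory sum was 0.233, 0.201 and 0.156 in CKO 1, 2 and 3 and 0.200, 0.246 and 0.227 in flox 1, 2 and 3, and the groups overlapped. The accessory median was 0.27 within the haemoglobin-positive and 0.18 within the negative libraries, and the core median 0.16 and -0.03. In the haemoglobin-positive libraries all 29 accessory and all 7 core subunits were higher in CKO, and in the negative ones 25 and 2. Without CKO 3 all 29 and all 7 were higher, with medians of 0.14 and 0.10.

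Ndufa3 (chromosome 7, 3617373 to 3620327, mm10), a small accessory subunit of the membrane arm, had 181, 195 and 245 CPM in CKO 1, 2 and 3, against 159, 133 and 161 CPM in flox 1, 2 and 3. Each CKO library lay above each flox library. The means were 207 ± 33.6 CPM in CKO and 151 ± 15.3 CPM in flox (SD, n = 3 each). Its log2 fold change was 0.46 (SE 0.18), with an unadjusted p of 0.0313 and an adjusted p of 0.9996 in edgeR with Benjamini-Hochberg adjustment. Within the haemoglobin-positive and negative libraries it was 0.30 and 0.47.

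Ndufa1 (chromosome X, 37187588 to 37191163), a single-pass accessory subunit needed for assembly of the membrane arm, had 158, 166 and 204 CPM in CKO 1, 2 and 3, against 135, 123 and 138 CPM in flox 1, 2 and 3. The groups did not overlap, and the log2 fold change was 0.41 (SE 0.16, unadjusted p 0.0334, edgeR), or 0.27 and 0.45 within the haemoglobin-positive and negative libraries. It lies on the X chromosome, and the Y-linked sums above differed between the groups. Ndufb4, another membrane arm subunit, had 117, 102 and 137 CPM in CKO and 100.5, 81.3 and 95.3 CPM in flox, with the lowest CKO value just above the highest flox value (log2 fold change 0.36, SE 0.17, unadjusted p 0.0702, edgeR).

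Among the core subunits, levels of the groups overlapped. Ndufs1, the large iron-sulfur subunit, had 81.0, 72.6 and 41.8 CPM in CKO 1, 2 and 3 and 58.5, 70.0 and 82.7 CPM in flox 1, 2 and 3, with CKO 3 the lowest. Ndufv1, which binds NADH, had 176, 97.2 and 84.7 CPM in CKO and 106, 110 and 124 CPM in flox. CKO 1 and flox 3 were the libraries with most rod transcripts (27662 and 24127 CPM of summed rod markers). They held the 2 highest levels of 12 of the 65 tested nuclear members, a count not made over all genes. CKO 1 and CKO 3 held the 2 highest of 29. Among the 12 were the core subunits Ndufs1, Ndufs3, Ndufs8, Ndufv1 and Ndufv2, the accessory subunits Ndufa8 and Ndufb10, and Sdhc, Uqcrfs1, Ndufa4 and Ndufa4l2. The part of rod RNA in these levels was not tested.

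**Figure D2:**
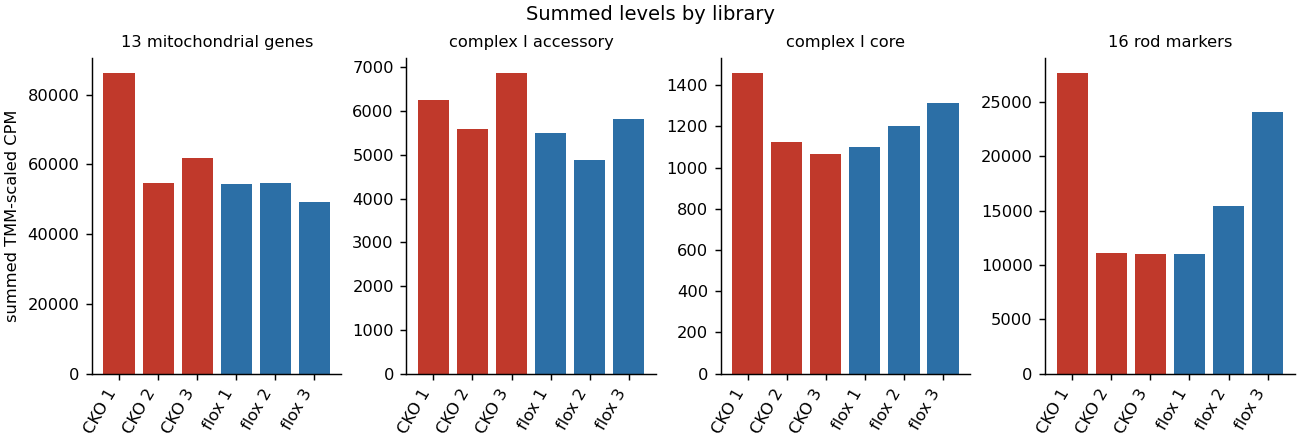
Summed TMM-scaled CPM (y axes, each from 0) of the 13 mitochondrial genes, the complex I accessory and core subunits and the 16 rod markers in each of the CKO (red) and flox (blue) libraries. CKO 1 has the highest mitochondrial and core sums, and CKO 3 the highest accessory sum.

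Complex II, the succinate dehydrogenase that also works in the citric acid cycle, showed the least difference. Its 4 genes had log2 fold changes between -0.06 and 0.12, with a median of 0.03, and the libraries of both groups overlapped for each. Sdhd, a membrane anchor, had 279, 274 and 268 CPM in CKO 1, 2 and 3 and 240, 272 and 245 CPM in flox 1, 2 and 3 (log2 fold change 0.12, SE 0.14, unadjusted p 0.433, edgeR). The other anchor, Sdhc, had 119, 93.5 and 109 CPM in CKO and 107, 111 and 117 CPM in flox (log2 fold change -0.06, SE 0.16, unadjusted p 0.701, edgeR). The catalytic subunits Sdha and Sdhb had log2 fold changes of 0.01 and 0.05.

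In complex III, 6 of 8 genes were higher in CKO, with a median log2 fold change of 0.23 (0.22 and 0.17 within the haemoglobin-positive and negative libraries, where 6 and 5 were higher). The 6 included the small subunits Uqcr11, Uqcrh, Uqcrb, Uqcr10 and Uqcrq. The Rieske iron-sulfur protein Uqcrfs1 (-0.08) and the large core proteins Uqcrc2 (-0.07) and Uqcrc1 (0.03) lay nearer 0. Uqcr11 (chromosome 10, 80402997 to 80406830), one of the smallest subunits, had 280, 267 and 362 CPM in CKO 1, 2 and 3, against 226, 200 and 253 CPM in flox 1, 2 and 3. Its lowest CKO library was above its highest flox library, and the log2 fold change was 0.42 (SE 0.18, unadjusted p 0.0484, edgeR), or 0.31 and 0.47 within the haemoglobin-positive and negative libraries. Uqcrh, the hinge protein that helps bind cytochrome c1, had 360, 383 and 566 CPM in CKO and 309, 325 and 374 CPM in flox. Its groups overlapped at CKO 1, and its fold change of 0.38 (SE 0.21, unadjusted p 0.109, edgeR) became 0.04 within the haemoglobin-positive libraries and 0.62 within the negative ones. Uqcrb, a subunit near the ubiquinone site, had 363, 343 and 403 CPM in CKO and 321, 287 and 320 CPM in flox (log2 fold change 0.26, SE 0.15, unadjusted p 0.126, edgeR).

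Complex IV was the only nuclear complex whose tested genes were all higher in CKO, 17 of 17, with a median log2 fold change of 0.30. Within the haemoglobin-positive and the negative libraries 15 of 17 were higher in each (medians 0.29 and 0.21). With library totals 15 of 17 were, against 33.9% of all genes tested. All CKO libraries lay above all flox libraries for Cox4i2, Cox7a2, Cox6b1, Cox8a and Cox7a1. For Cox7a1 this rested on few counts, 32, 22 and 70 in CKO 1, 2 and 3 and 33, 26 and 22 in flox 1, 2 and 3. Its lowest CKO level was 1.84 CPM and its highest flox level 1.60 CPM. The abundant Cox7a2, the general form of a small subunit, had 446, 384 and 453 CPM in CKO 1, 2 and 3 and 375, 306 and 350 CPM in flox 1, 2 and 3 (log2 fold change 0.32, SE 0.16, unadjusted p 0.0829, edgeR). Cox6b1, which joins the monomers of the enzyme, had 739, 707 and 839 CPM in CKO and 644, 589 and 655 CPM in flox.

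Cox4i2 (chromosome 2, 152754173 to 152765037) had the highest fold change of the 78 tested members. It encodes the alternative form of subunit 4, known from lung, vascular smooth muscle and pericytes and from the response to low oxygen. Its level was 18.9, 19.1 and 50.2 CPM in CKO 1, 2 and 3, against 18.5, 8.45 and 7.14 CPM in flox 1, 2 and 3. CKO 1 and CKO 2 lay only just above flox 1, and CKO 3 was far above the other libraries. The means were 29.4 ± 18 CPM in CKO and 11.4 ± 6.24 CPM in flox (SD, n = 3 each). The log2 fold change was 1.37 (SE 0.51, unadjusted p 0.0290, adjusted p 0.9996, edgeR with Benjamini-Hochberg adjustment). It was 1.28 within the haemoglobin-positive and 0.90 within the negative libraries, and 0.74 with the CKO library of the highest level left out. The 10 pericyte markers summed to 784, 181 and 319 CPM in CKO 1, 2 and 3 and to 416, 196 and 454 CPM in flox 1, 2 and 3. Of the 10, 9 had a higher fitted level in CKO (median log2 fold change 0.45). Within the haemoglobin-positive libraries 8 of the 9 with counts in every library were higher in CKO (median log2 ratio 2.22). Within the negative ones only 1 of 9 was (median -1.39), so the direction reversed. The median log2 deviation of the markers from the mean of the libraries was 1.96, -0.77 and 0.97 in CKO 1, 2 and 3 and 1.67, -3.30 and 0.23 in flox 1, 2 and 3. Their part in the level of Cox4i2 was not tested.

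The tissue-specific isoforms stayed minor beside their general partners. Levels are compared here as CPM per kilobase of transcript. Cox4i2 made up 1.88%, 2.07% and 4.51% of the Cox4i1 and Cox4i2 total in CKO 1, 2 and 3, against 2.07%, 0.952% and 0.778% in flox 1, 2 and 3. The testis form Cox6b2 made up 0.590% to 1.75% of its pair with Cox6b1 over the 6 libraries, and the heart and muscle forms Cox6a2 and Cox7a1 0.250% to 1.90% and 0.662% to 1.32% of theirs. Ndufa4l2, a form induced by low oxygen and also a pericyte transcript, made up 0.0758% to 1.18% of its pair with Ndufa4. In CPM it had 11.5, 0.754 and 3.65 in CKO 1, 2 and 3 and 3.78, 0.570 and 3.86 in flox 1, 2 and 3, with the highest level in the library richest in pericyte markers, CKO 1. The muscle form Cox8b had 0 counts in all CKO libraries and in flox 1, and 8 and 20 counts in flox 2 and 3. Cox7b2 and Cox8c, testis forms, had 0 counts in all 6 libraries.

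Cox6b2 is a rare member with a fold change of 0.85 (SE 0.39, unadjusted p 0.0604, edgeR). Its level was 6.99, 11.3 and 11.2 CPM in CKO 1, 2 and 3 and 5.18, 7.72 and 3.48 CPM in flox 1, 2 and 3, and CKO 1 lay below flox 2. Per kilobase and averaged over the 6 libraries, the most abundant nuclear members of each complex were Cox8a (1467 CPM per kb) and Cox4i1 (1284) in complex IV, Uqcrh (706) in complex III, Ndufa2 (620) in complex I and Sdhb (278) in complex II. The least abundant tested member of each complex was Ndufa4l2 in complex IV (4.30 CPM per kb), Uqcrc2 in complex III (82.7), Ndufs1 in complex I (25.8) and Sdhc in complex II (34.5). Counts of 17 nuclear members were fractional in some library, so reads shared with near-identical copies may affect them.

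Many respiratory chain genes have promoters with sites for NRF1, for ETS-family factors such as GABP (also called NRF-2) and for YY1. In RefSeq windows (GRCm38.p6) of 250 bases before the start, 54 of the 70 nuclear members matched, with 56 windows. The mitochondrial genes were not searched. The ETS core CCGGAAG was in 8 member windows (14.3%), against 6.91% of all 32851 windows. The palindromic core of the NRF1 site was in 2 (3.57%, Cox6a1 and Ndufa11), against 0.782%, and the core of the YY1 site was in 0, against 0.301%. Both strands were searched, and a match describes the letters only. The windows of the leading tested members of complexes I and III and of the abundant and rare Cox6b forms are printed 5′ to 3′ on the gene's strand, with any of these motifs in capitals.
Ndufa3, chr7:3617123-3617372, plus strand: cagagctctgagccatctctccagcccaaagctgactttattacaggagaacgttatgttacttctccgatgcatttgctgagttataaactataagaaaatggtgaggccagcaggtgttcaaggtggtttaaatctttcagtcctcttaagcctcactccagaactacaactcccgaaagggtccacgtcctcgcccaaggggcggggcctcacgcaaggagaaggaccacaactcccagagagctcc
Uqcr11, chr10:80406822-80407071, minus strand: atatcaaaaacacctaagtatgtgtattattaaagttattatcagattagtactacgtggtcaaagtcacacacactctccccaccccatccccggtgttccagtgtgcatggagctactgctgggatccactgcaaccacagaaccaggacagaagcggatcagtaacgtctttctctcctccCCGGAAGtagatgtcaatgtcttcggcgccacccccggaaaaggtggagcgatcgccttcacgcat
Cox6b1, chr7:30626115-30626364, minus strand: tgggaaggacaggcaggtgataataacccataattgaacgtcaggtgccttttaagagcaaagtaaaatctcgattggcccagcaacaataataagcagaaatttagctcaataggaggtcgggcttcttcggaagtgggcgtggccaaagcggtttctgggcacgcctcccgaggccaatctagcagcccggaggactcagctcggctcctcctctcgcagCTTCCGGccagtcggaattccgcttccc
Cox6b2, chr7:4753095-4753344, minus strand: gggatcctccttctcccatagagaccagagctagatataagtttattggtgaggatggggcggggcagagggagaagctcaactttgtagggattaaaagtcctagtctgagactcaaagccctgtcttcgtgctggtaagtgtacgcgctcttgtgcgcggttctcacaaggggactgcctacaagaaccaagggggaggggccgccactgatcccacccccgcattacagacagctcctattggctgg
The ETS core is in the windows of Uqcr11 and, on the other strand, of Cox6b1, and in neither of the others. It was also in those of Cox6a1, Ndufb6, Ndufb7, Ndufs3, Sdhd and Uqcrh, whose fold changes ran from 0.10 (Ndufs3) to 0.38 (Uqcrh).

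The fold changes of nuclear members followed transcript length. Lengths were those of the principal transcripts in GENCODE M21, and 64 tested nuclear members had one. All 33 members of up to 800 bases were higher in CKO, with a median log2 fold change of 0.28. Of 15 members over 800 and up to 1200 bases 13 were higher (median 0.17), and of 16 members over 1200 bases 9 were (median 0.02). No nuclear core subunit of complex I and no subunit of complex II was among the short ones, which held small subunits of complexes I, III and IV. No tested member of complex IV was over 1200 bases. With library totals the 3 classes had 30, 8 and 3 members higher in CKO.

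Genes outside the respiratory chain showed the same order by length. Of 404 other tested genes of up to 800 bases, 78.2% were higher in CKO (median log2 fold change 0.20). Of 858 over 800 and up to 1200 bases 65.0% were (median 0.09), and of 11649 longer ones 48.3% (median -0.01). Of the 81 cytosolic ribosomal protein genes 79 were higher in CKO, with a median of 0.27. These were 40 of the 41 of up to 800 bases (0.34), 24 of the 25 of middle length (0.21) and all 15 of the longer ones (0.18), so this list was higher in the long class too. The 78 mitochondrial ribosomal protein genes, 42 of them over 1200 bases, had 40 higher in CKO and a median of 0.00. By class, 14 of the 18 of up to 800 bases were higher (0.13), 7 of the 18 of middle length (-0.04) and 19 of the 42 longer ones (-0.01).

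CKO 3 showed the length trend most. Relative to the mean of the 6 libraries, the median nuclear member of up to 800 bases deviated by 0.10, -0.04 and 0.32 in CKO 1, 2 and 3, and by -0.06, -0.26 and -0.04 in flox 1, 2 and 3 (log2). The median member over 1200 bases deviated by 0.23, -0.02 and -0.16 in CKO 1, 2 and 3, and by -0.09, 0.03 and 0.10 in flox 1, 2 and 3. Other tested genes of up to 800 bases were also highest in CKO 3 and lowest in flox 2. Their medians were 0.07, 0.03 and 0.22 in CKO 1, 2 and 3, and -0.0006, -0.16 and -0.08 in flox 1, 2 and 3. Without CKO 3 the medians of the short, middle and long members were 0.15, 0.12 and 0.10, and without CKO 1 they were 0.29, 0.07 and -0.12. The part of RNA or library quality in this trend was not tested.

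**Figure D3:**
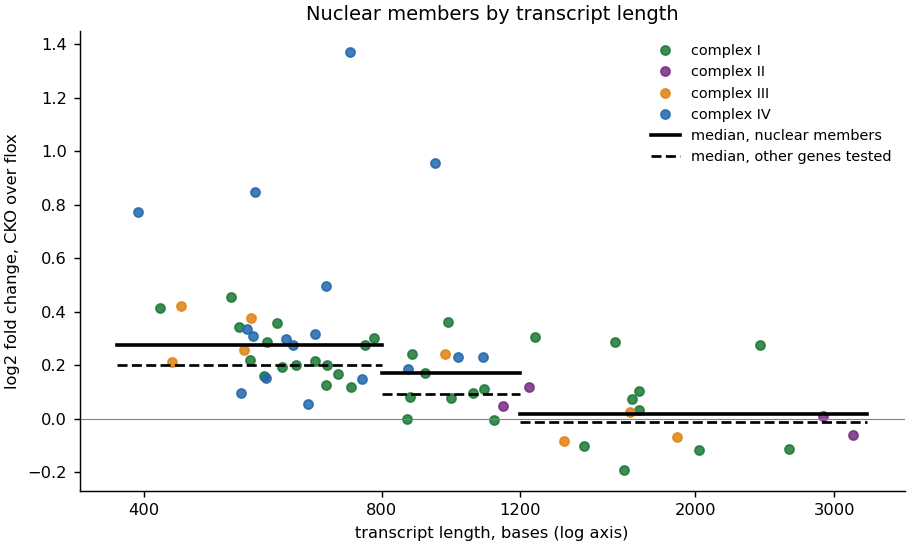
Log2 fold change (CKO over flox) of each nuclear member with a length against transcript length in bases (log axis), coloured by complex, with the medians of members and of other tested genes in 3 length classes. Both sets of medians fall with length, the members' at 0.28, 0.17 and 0.02.

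**Figure D4:**
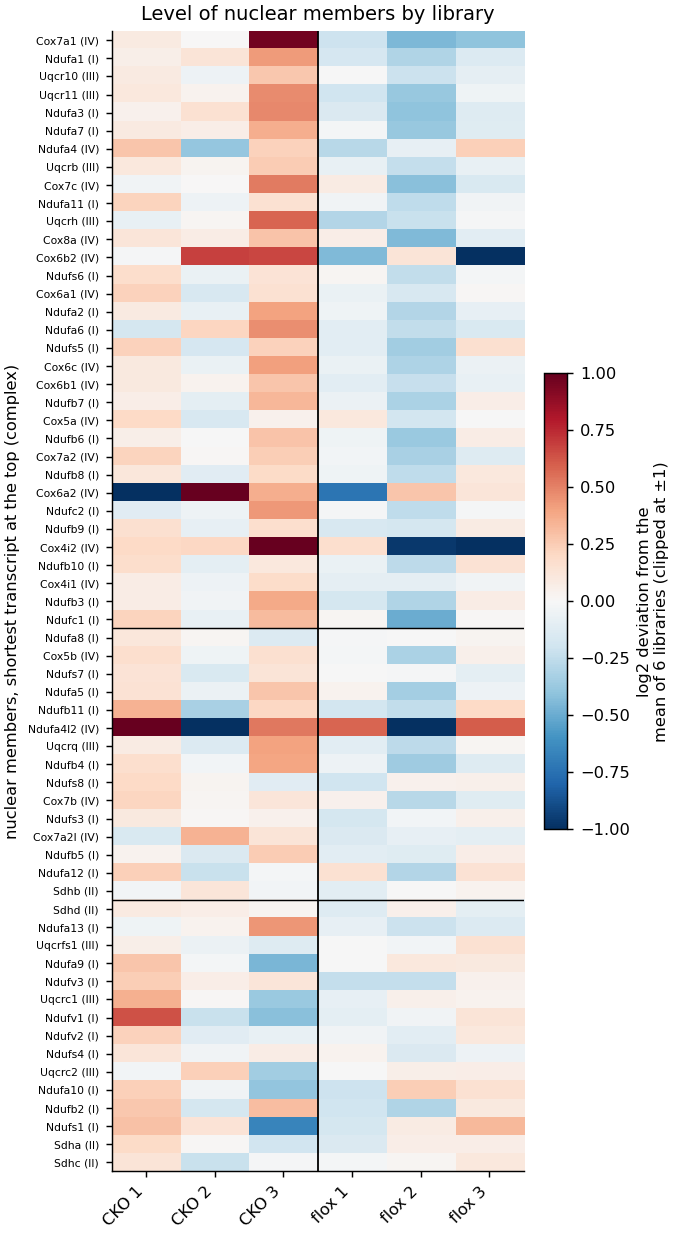
Log2 deviation of nuclear members with a length from its mean over the 6 libraries (colour, clipped at ±1), CKO libraries left of the line and flox libraries right, with the shortest transcripts at the top and lines at 800 and 1200 bases. CKO 3 is high among the short members and low among several long ones, and flox 2 is low among the short ones.

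The mitochondrial genes were very abundant and were highest in 1 CKO library. Summed over the 13 genes, they had 86175, 54654 and 61913 CPM in CKO 1, 2 and 3, against 54251, 54687 and 49312 CPM in flox 1, 2 and 3. CKO 2 lay within the flox range, CKO 3 somewhat above it and CKO 1 far above it. The means were 67581 ± 16507 CPM in CKO and 52750 ± 2986 CPM in flox (SD, n = 3 each). They took 8.70%, 4.85% and 6.02% of all counts in CKO 1, 2 and 3 and 5.69%, 5.63% and 5.22% in flox 1, 2 and 3.

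All 13 had a positive fold change, between 0.19 and 0.70 with a median of 0.34, yet this rested on CKO 1, which held the highest level of each. Without CKO 1 the median was 0.09 and 11 of 13 were higher, and without CKO 1 and flox 3, the libraries richest in rod transcripts, it was 0.07 with 10 of 13. Within the haemoglobin-positive libraries, where CKO 1 was the CKO library, the median log2 ratio was 0.77, and within the negative ones 0.07. CKO 1 had the most rod transcripts and flox 3 the next most, with the highest and the lowest mitochondrial sum. The part of rod RNA in these sums was not tested. Mitochondrial per nuclear member counts were 5.01, 3.54 and 3.42 in CKO 1, 2 and 3 and 3.63, 3.97 and 3.13 in flox 1, 2 and 3, so the other CKO libraries lay within the flox range.

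**Figure D5:**
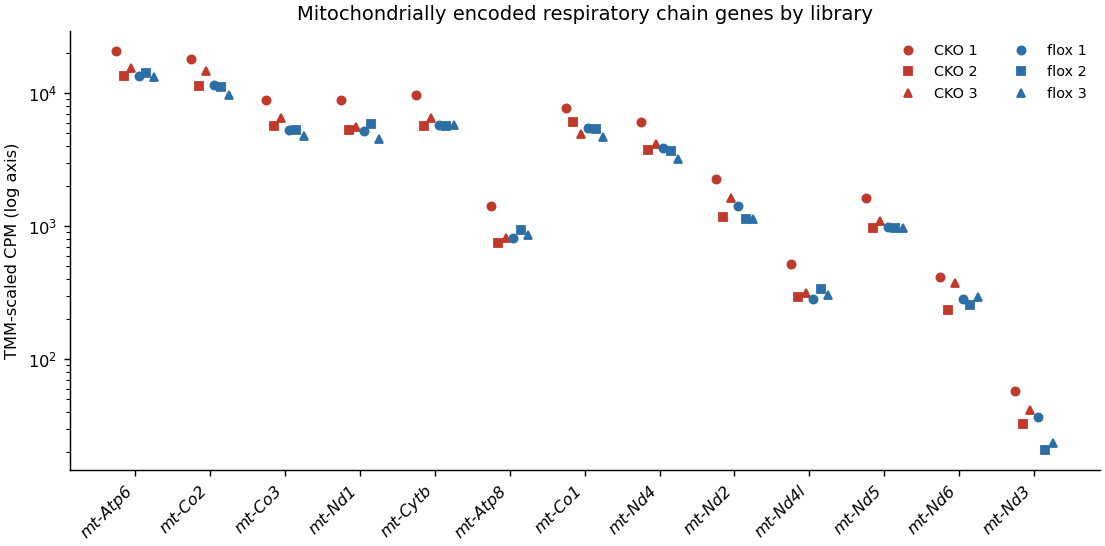
TMM-scaled CPM (log axis) of each mitochondrial gene in the CKO and flox libraries. CKO 1 is the highest for each of the 13 genes, and mt-Co3 is the only one of them for which all CKO libraries lie above all flox libraries.

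For mt-Co3 (mitochondrial DNA, 8607 to 9390), a subunit of the catalytic core of complex IV, all CKO libraries lay above all flox libraries. Its level was 8837, 5665 and 6527 CPM in CKO 1, 2 and 3, against 5289, 5258 and 4751 CPM in flox 1, 2 and 3. The log2 fold change was 0.46 (SE 0.20, unadjusted p 0.0524, edgeR), 0.82 within the haemoglobin-positive and 0.20 within the negative libraries. The copper-binding subunit mt-Co2 had 18154, 11327 and 14714 CPM in CKO and 11571, 11005 and 9723 CPM in flox (0.45), with CKO 2 below flox 1. The haem-binding subunit mt-Co1 had 7709, 6040 and 4916 CPM in CKO and 5499, 5375 and 4681 CPM in flox (0.26).

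The gene of smallest p was mt-Nd3, a membrane subunit of complex I and the rarest of the 13. It had 57.8, 32.7 and 41.7 CPM in CKO 1, 2 and 3, against 37.1, 20.7 and 23.5 CPM in flox 1, 2 and 3. CKO 2 was below flox 1. In edgeR this gave a log2 fold change of 0.70 (SE 0.29, unadjusted p 0.0425), with 1.39 within the haemoglobin-positive and 0.00 within the negative libraries. The other complex I genes had fold changes of 0.46 (mt-Nd2), 0.37 (mt-Nd4), 0.34 (mt-Nd1 and mt-Nd5), 0.30 (mt-Nd6) and 0.29 (mt-Nd4l). Of these mt-Nd2, for example, had 2259, 1162 and 1641 CPM in CKO and 1409, 1129 and 1139 CPM in flox, and its ratio within the haemoglobin-negative libraries was -0.01.

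Cytochrome b of complex III (mt-Cytb) had 9682, 5685 and 6435 CPM in CKO 1, 2 and 3, against the close values of 5701, 5666 and 5703 CPM in flox 1, 2 and 3, and CKO 2 lay among the flox values. The ATP synthase genes mt-Atp6 and mt-Atp8 had the fold changes 0.28 and 0.19. Without CKO 1, the value for mt-Atp8 was -0.15. Reads of mt-Atp8 and mt-Atp6, of mt-Nd4l and mt-Nd4 and of mt-Nd5 and mt-Nd6 are uncertain where these genes overlap or abut, and mt-Nd6 lies on the other strand.

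Per kilobase, the order of the mitochondrial genes over the 6 libraries was mt-Atp6 (22049 CPM per kb), mt-Co2 (18639), mt-Co3 (7723), mt-Nd1 (6145), mt-Cytb (5663), mt-Atp8 (4577), mt-Co1 (3692), mt-Nd4 (2979), mt-Nd2 (1403), mt-Nd4l (1149), mt-Nd5 (603), mt-Nd6 (599) and mt-Nd3 (102). The genome is transcribed as long precursors that are cut into messages, and mt-Nd6 lies on the other strand. Message stability was not measured, and the levels of overlapping or abutting genes are uncertain, as stated above. The ranges of neighbours did not overlap between mt-Co2 and mt-Co3, mt-Nd4 and mt-Nd2, mt-Nd4l and mt-Nd5, and mt-Nd6 and mt-Nd3, and those of the other neighbours did. Within each library, however, mt-Atp6 also lay above mt-Co2, mt-Co3 above mt-Nd1, mt-Cytb above mt-Atp8 and mt-Co1 above mt-Nd4. The remaining neighbours changed order in some library. Of the summed mitochondrial CPM, mt-Atp6 took 23.9% to 26.6% and mt-Co2 19.7% to 23.8%, while mt-Co1 ran from 7.94% in CKO 3 to 11.1% in CKO 2. The rare mt-Nd3 ran from 0.0378% in flox 2 to 0.0685% in flox 1, and mt-Nd6 from 0.429% in CKO 2 to 0.609% in CKO 3.

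Other genes of the pathway gave a mixed picture. None of the 322 tested in 12 lists passed the adjusted threshold in edgeR, and 4 (1.24%) had an unadjusted p under 0.05, against 2.81% of all genes. In all 201 were higher in CKO (62.4%, against 50.6% of all genes), and 135 with library totals (41.9%, against 33.9%). Without the cytosolic ribosomal protein genes, which were kept for comparison, 122 of 241 were higher (50.6%). By library totals 62 of the 241 were (25.7%), below the 33.9% of all genes. Of 17 nuclear ATP synthase genes 15 were higher in CKO (median log2 fold change 0.13). The counts were 13 of 20 for complex IV assembly factors (0.10), 7 of 10 for those of complexes II and III (0.03) and 6 of 16 for those of complex I (-0.06). Of the genes for mitochondrial DNA expression 9 of 25 were higher (-0.04), of ubiquinone synthesis and cytochrome c 6 of 16 (-0.04), and of the citric acid cycle 6 of 18 (-0.03). Regulators of mitochondrial biogenesis had 6 of 14 higher (-0.04), chaperones and proteases 5 of 13 (-0.05) and fission, fusion and mitophagy genes 9 of 14 (0.05).

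Genes of smallest unadjusted p in these lists (edgeR) were as follows. Atp5mf, a membrane subunit of ATP synthase, had 236, 215 and 224 CPM in CKO 1, 2 and 3 and 192, 156 and 176 CPM in flox 1, 2 and 3, with no overlap (log2 fold change 0.37, SE 0.15, p 0.0421). Sirt1, a deacetylase that acts on the coactivator PGC-1α, had 12.9, 8.46 and 12.2 CPM in CKO and 18.5, 15.7 and 18.9 CPM in flox, again with no overlap (-0.66, SE 0.25, p 0.0286). Mrpl30 of the mitochondrial ribosome had 220, 249 and 223 CPM in CKO and 195, 180 and 168 CPM in flox (0.35, p 0.0455), and Rpl34 of the cytosolic ribosome averaged 1222 CPM in CKO and 880 CPM in flox (0.47, p 0.0489). The assembly factors Ndufaf8, Uqcc2 and Pet100 had fold changes of 0.45, 0.28 and 0.41 (p 0.119, 0.130 and 0.150). Values were -0.37 for Pnpt1, a mitochondrial RNA-processing nuclease (p 0.0695), 0.58 for Coq8a of ubiquinone synthesis (p 0.196) and -0.48 for Suclg2 of the citric acid cycle (p 0.0644). The protease gene Yme1l1 had -0.35 (p 0.0997).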

How the data were processed

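The authors deposited 1 table of estimated counts per gene symbol, unscaled. The submitters' processing notes name fastp 0.18.0, HISAT2 2.2.4 and the build mm10. Which tool counted reads, with which gene models and strand option, is not given in the sources used here. Of 21956 table entries, 83 without a symbol (0.0122% to 0.0185% of counts) were left out and 22 repeated symbols were summed. Counts were rounded and tested with edgeR 4.0.16 in R 4.3.3 (TMM, filterByExpr, robust quasi-likelihood fit on group alone, prior count 0.125, adjusted p threshold 0.05). The table was fitted whole, and log2 fold changes are CKO over flox. CPM used unrounded counts. GENCODE M21 placed 80 of 83 members on mm10 and gave transcript lengths.

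Groups and replicate numbers came from titles, and p-values measure only the spread between these libraries. Alternatives used DESeq2 1.42.0, limma 3.58.1 and other scalings, filters and library subsets. Members and lists were chosen with earlier results of these data known. Genes named were all mitochondrial members, the smallest-p genes of each nuclear complex (3 each, 2 in complex II) and of each other list, isoform pairs, the most and least abundant members, and Cd36. Ndufs1, Ndufv1, Sdha, Sdhb, Uqcrc1, Uqcrc2, Uqcrfs1 and the members named for separate groups, high libraries or motifs were added after their values were seen. Some genes the naming rule or values pointed to are not reported here.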

Additional observations from a re-analysis of the deposited data

How the results depend on the processing

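No respiratory chain member and no other pathway gene passed the adjusted threshold under any alternative run, nor at an adjusted p of 0.1. Among all genes, 0 passed except 23 with DESeq2 and 2 with haemoglobin set as a term, and leaving out each library in turn gave 0 each time. The nuclear median log2 fold change of 0.20 ranged from 0.14 to 0.28 when 1 library was left out, and that of the mitochondrial genes from 0.09 to 0.50 about its value of 0.34. With library totals they were 0.08 and 0.23. The mitochondrial median was 0.77 within the haemoglobin-positive and 0.0674 within the haemoglobin-negative libraries. The cause of these shifts was not tested.

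Of the other values, for single genes and complexes over all alternatives, 923 stayed the same, 22 changed sign and 1 moved. For a gene, the same means the same direction and call. For a complex it means a median of the same sign within the SD between libraries. Several alternatives differ little from the main fit. The complex III median moved to 0.10 with library totals. Small medians changed sign. That of complex II (0.03) was -0.10 with library totals and -0.0018 with limma-voom sample weights, and -0.0242 to 0.0865 with 1 library left out. That of the complex I core (0.07) was -0.0506 with library totals, -0.0094 with limma-voom, -0.0288 without CKO 1 and flox 3, -0.0319 within the haemoglobin-negative libraries, and -0.0869 to 0.10 with 1 library left out. Leaving out CKO 1 and flox 3, a choice made after seeing the data, gave -0.16 for mt-Atp8, -0.0218 for mt-Nd1 and -0.0338 for mt-Nd4l. Within the haemoglobin-negative libraries mt-Atp8 was -0.0610, mt-Co1 -0.0056 and mt-Nd2 -0.0076. With 1 library left out mt-Atp8 ran from -0.15 to 0.36, mt-Nd4l from -0.0215 to 0.44 and Sdhc from -0.15 to 0.0233. Sdhd was -0.0098 with library totals. Sdhc was 0.0017 with the possible same-mouse libraries summed and 0.0651 within the haemoglobin-positive libraries, and Pet100 was -0.0542 there.

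Libraries of the same title number did not deviate alike from their group means, with correlations of -0.32, 0.01 and -0.33. With so few libraries, which also differ in cell content, this cannot show whether the numbers mark pairs. With the replicate block, the nuclear median was 0.20 and the mitochondrial one 0.31, and 0 members were called. Depth limits Cox8b, Cox7b2, Cox8c, Ndufb11b and Cox5b-ps, which had too few counts to test.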
